A study of Mus musculus with 15 samples.

Results

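The E2F transcription factor genes of C2C12 myotubes, E2f1 to E2f8, were examined across 5 treatment groups. All 8 symbols are rows of the deposited gene table, which holds 42807 symbols, and all 8 were among the 14461 genes that passed a filter on low counts. The family was chosen by measured values, selected on 2 contrasts of these libraries: E2f2 was higher than vehicle at 20 µg/mL of the extract, and E2f1, unlike the other genes of a cell cycle list, was not lower at 500 µg/mL. The differences of those doses from vehicle are therefore given below as descriptions, with no test. Counts of members past the threshold in those comparisons are printed once, and nothing is read from them.

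C2C12 is a mouse myoblast line, here bought from ATCC, that fuses into multinucleated myotubes when serum is withdrawn. Jakyak-gamcho-tang (JGT) is a herbal formula, here a hot-water extract of peony root (Paeoniae radix) and licorice root and rhizome (Glycyrrhizae radix et rhizoma). Myotubes differentiated for 6 days were left untreated, given vehicle (0.1% DMSO), or given JGT at 20, 100 or 500 µg/mL, and RNA was taken after 24 h. The highest dose was set by the submitters as the one leaving 80% of myotubes viable, and each group has 3 libraries. All groups share the cell line, the differentiation schedule and the 24 h interval, and no group carries a genetic change. The JGT stock was made in PBS with 2% DMSO, and the DMSO content of the JGT wells is not given. Whether a group's 3 libraries stem from separate cultures is not in the labels, so the p-values reflect a library-to-library spread that may be technical. The titles of all libraries carry the same batch label, without saying what it covers. The sample codes of the untreated and vehicle libraries belong to another series of codes than those of the JGT libraries. A difference between JGT and its controls therefore cannot be told apart from whatever separates these codes.

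E2F proteins bind DNA at the promoters of genes for DNA replication and cell division. The activators E2F1, E2F2 and E2F3 and the repressors E2F4 and E2F5 bind as dimers with a DP protein and are held in check by the retinoblastoma family of pocket proteins, which cyclin-dependent kinases release. E2F6 represses without pocket proteins, through Polycomb complexes, and the atypical members E2F7 and E2F8 bind DNA without a DP partner, repress E2F target genes, and are themselves transcribed in proliferating cells. Myotubes have left the cell cycle, and a C2C12 culture also holds mononucleated cells that did not fuse.

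Library totals ranged from 26012844 to 36854199 estimated counts. The deposited estimates for the 8 genes lay between 152 (E2f7, library 3 of JGT 500 µg/mL) and 3814 (E2f2, library 2 of JGT 100 µg/mL). Myotube markers such as Myh3, Myog and Ckm summed to 11942 to 13585 CPM (counts scaled to library size) over the 15 libraries, markers of undifferentiated cells such as Pax7, Myf5 and Cd34 to 156 to 222 CPM, and adipocyte markers to at most 0.180 CPM. Within the JGT 500 µg/mL group the second library was the lowest for E2f1 and the highest for E2f2, E2f7 and E2f8, and values without it are given below. In these bulk libraries fewer cells of a type and less RNA per cell cannot be told apart.

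The promoter sequences of E2f2, E2f7 and E2f8 are shown because these 3 genes were called between 100 and 500 µg/mL. They come from RefSeq on GRCm38.p6, run 5′ to 3′ on the gene's strand, and stop at the base before the start site. Capitals mark matches, on either strand, to a CCAAT box (CCAAT), to a CHR (TTTGAA, an element of many mitotic promoters), or to an E2F site (TTTCCCGC, TTTGGCGC, TTTCGCGC or TTTGCCGC). Windows were found for 6 of the 8 genes.

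E2f2 promoter, chr4:136172024-136172273, plus strand: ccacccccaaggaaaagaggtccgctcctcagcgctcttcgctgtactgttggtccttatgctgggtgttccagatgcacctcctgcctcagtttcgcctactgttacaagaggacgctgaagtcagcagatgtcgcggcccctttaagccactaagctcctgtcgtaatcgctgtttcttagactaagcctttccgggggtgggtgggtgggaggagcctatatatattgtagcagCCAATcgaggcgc
E2f2 E2F site after the start, chr4:136172293-136172322, plus strand: ccgaatttggcggcatatagTTTGGCGCta
E2f7 promoter, chr10:110745189-110745438, plus strand: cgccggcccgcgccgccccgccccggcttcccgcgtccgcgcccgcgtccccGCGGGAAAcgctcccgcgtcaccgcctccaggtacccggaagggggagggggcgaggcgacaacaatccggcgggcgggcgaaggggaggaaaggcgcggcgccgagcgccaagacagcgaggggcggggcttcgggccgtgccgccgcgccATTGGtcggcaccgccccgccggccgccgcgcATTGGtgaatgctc
E2f8 promoter, chr7:48881597-48881846, minus strand: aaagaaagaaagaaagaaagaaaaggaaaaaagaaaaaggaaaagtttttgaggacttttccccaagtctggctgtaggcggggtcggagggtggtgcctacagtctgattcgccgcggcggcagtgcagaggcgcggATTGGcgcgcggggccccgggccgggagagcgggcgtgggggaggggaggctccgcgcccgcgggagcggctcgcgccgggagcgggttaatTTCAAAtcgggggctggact

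RefSeq gives E2f2 a pair of start sites. The window shown held a CCAAT box 13 bases before the start and an E2F site (TTTGGCGC) 40 bases after it. The window of the downstream start (position 136180782), which runs into a coding exon and is not shown, held a CHR 31 bases before that start and CCAAT boxes 174, 133 and 53 bases before it. The E2f7 window held an E2F site (TTTCCCGC) on the reverse strand 198 bases before the start and reverse CCAAT boxes 46 and 14 bases before it. In E2f8 a CHR lay on the reverse strand 20 bases before the start and a reverse CCAAT box 112 bases before it, with no match to the E2F letters in this window. For E2f3, the window at position 29986063 held an E2F site 11 bases and a CHR 23 bases before the start. It also held CCAAT boxes 145, 109 and 81 bases before the start, and the other E2f3 window held no match. Windows from 250 bases before to 50 bases after the start held an E2F site in 3 of 6 E2F genes, against 2.6% of 27025 genes. They held a CHR in 3 of 6, against 20.2%, and a CCAAT box in 4 of 6, against 41.1%. The E2f1 window, counted among these 6, held no match. It lay wholly within annotated exons of E2f1, with 188 of its 300 bases coding. An E2F site was found in 11 of 25 DNA replication genes and in 1 of 21 mitotic genes, and a CHR in 3 of 25 and in 15 of 21. A match is a string of letters and does not show binding.

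Among the members, E2f7 and E2f8 fell at the highest dose, and E2f2 rose at 100 µg/mL and was lower again at 500 µg/mL. The rise of E2f2 uses the same vehicle libraries as the contrast that chose E2f2. For E2f1, E2f4, E2f5 or E2f6 no change passed the test in any tested comparison of the fit over all 5 groups. The E2f1 comparisons with 500 µg/mL share libraries with the contrast that chose E2f1 as not lower. E2f3 was lower at 500 than at 20 µg/mL, a call that was lost in 11 of 21 alternative analyses. Levels of single genes below are in CPM scaled by the TMM method of edgeR, while sums over a list are in CPM scaled to library totals alone. Differences are log2 fold changes from edgeR's quasi-likelihood fit, with standard error (SE) and a p-value adjusted over all 14461 genes. A gene was called where the adjusted p was below 0.05.

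**Figure D1:**
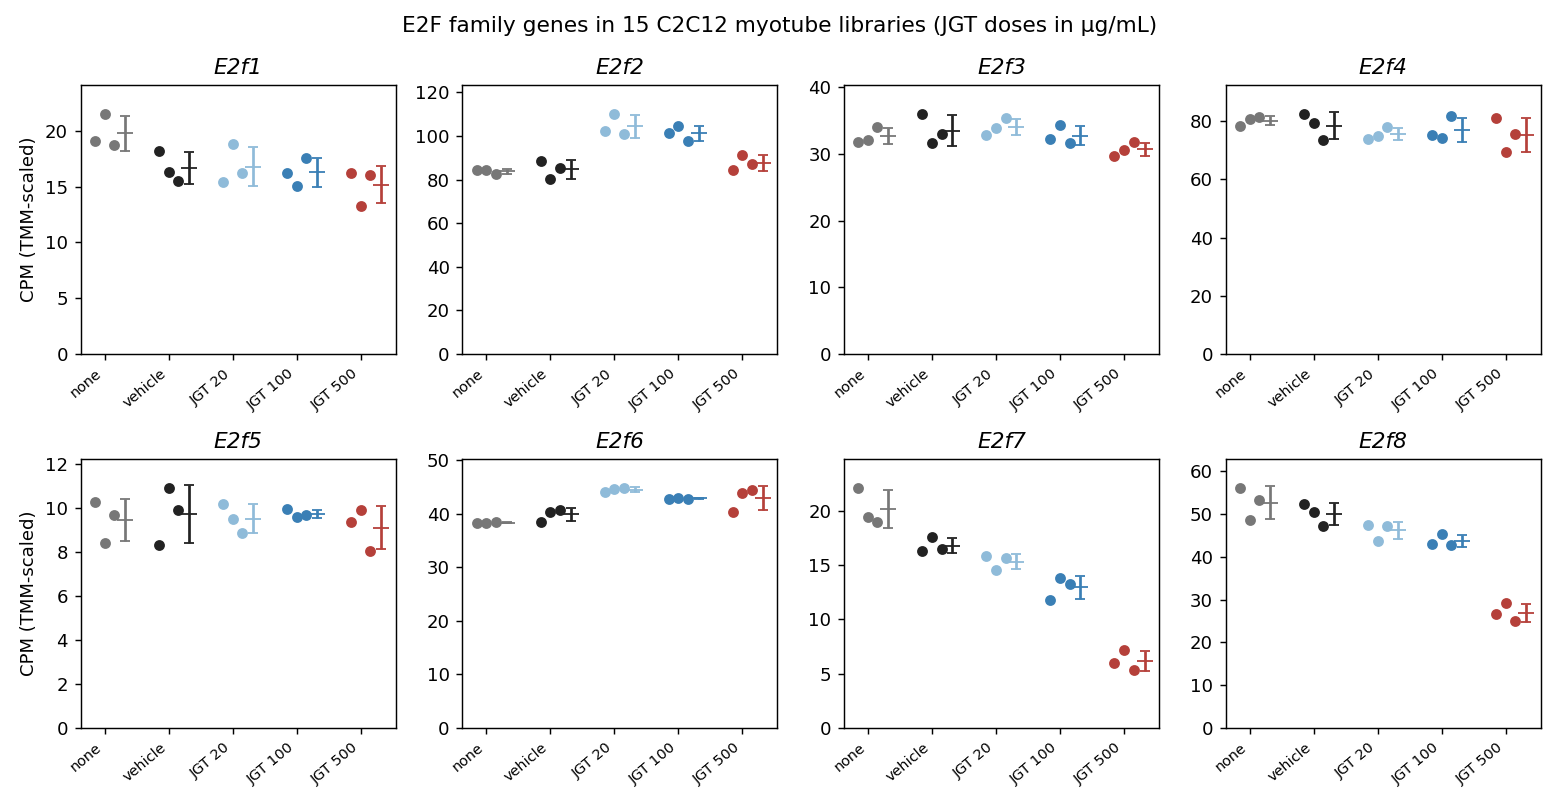
CPM (TMM-scaled) of E2f1 to E2f8 in every library, by group on the x axis, with points for libraries and a dash with bars for mean and SD (n = 3). E2f7 and E2f8 step down to 6.16 and 26.9 CPM at 500 µg/mL, while E2f2 is highest at 20 and 100 µg/mL.

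E2f1 (ENSMUSG00000027490, chr2:154559407-154569892, minus strand, GRCm38) encodes an activator that drives entry into S phase and can also induce apoptosis genes. Its CPM in the 3 libraries of each group was 19.1, 21.5 and 18.7 untreated, 18.2, 16.3 and 15.5 in vehicle, 15.4, 18.8 and 16.2 at 20 µg/mL, 16.2, 15.03 and 17.6 at 100 µg/mL, and 16.2, 13.3 and 16.1 at 500 µg/mL. The ranges of vehicle and of the 3 JGT groups overlapped, and the untreated libraries were all above vehicle. Vehicle differed from untreated by -0.25 ± 0.0923 (edgeR adjusted p = 0.192), which did not pass the test. A fit of these 2 groups alone called it (edgeR adjusted p = 0.0336). E2f1 differed from 100 to 500 µg/mL by a log2 value of -0.10 ± 0.0923 (edgeR adjusted p = 0.474), with a 95% interval from -0.30 to 0.09, which does not show that the level stayed the same. The lowest JGT 500 value came from the second library, and without that library the difference was -0.02 (adjusted p = 0.899). Between 500 µg/mL and vehicle, the difference that entered the choice of the family, the log2 value was -0.14 ± 0.0940. The comparisons of 500 with 100 and 20 µg/mL share the JGT 500 libraries with that difference. E2f1 was chosen as not lower there, so the lack of a call at 500 µg/mL is favoured by that choice.

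E2f2 (ENSMUSG00000018983, chr4:136172394-136196057, plus strand) encodes another activator. Its CPM was 84.6, 84.3 and 82.5 untreated, 88.8, 80.2 and 85.2 in vehicle, 102, 110 and 101 at 20 µg/mL, 101, 105 and 97.9 at 100 µg/mL, and 84.2, 91.2 and 87.4 at 500 µg/mL. The 6 libraries at 20 and 100 µg/mL were all above the 9 others, and the JGT 500 libraries overlapped vehicle. E2f2 rose at 100 µg/mL against vehicle by a log2 value of 0.26 ± 0.0455 (edgeR adjusted p = 0.00168), a 19.6% higher level with all 3 libraries above vehicle. It then fell from 100 to 500 µg/mL by -0.21 ± 0.0453 (adjusted p = 0.00252), and from 20 to 500 µg/mL by -0.25 ± 0.0454 (adjusted p = 0.000309). Without the second JGT 500 library these falls were -0.25 (adjusted p = 0.000123) and -0.29 (adjusted p = 1.38e-05). These comparisons share libraries with each other and, in part, with the contrasts that entered the choice of E2f2. The rise at 100 µg/mL uses the same vehicle libraries as that choice, and the fall from 20 to 500 µg/mL the same 20 µg/mL libraries. Both are favoured by that choice, because E2f2 was chosen as higher than vehicle at 20 µg/mL. Their p-values are therefore no independent support. For 20 µg/mL against vehicle the log2 value was 0.30 ± 0.0456, and for 500 µg/mL it was 0.05.

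E2f3 (ENSMUSG00000016477, chr13:29906575-29986063, minus strand), the remaining activator, ranged from 31.6 to 36.0 CPM in vehicle, 32.9 to 35.4 at 20 µg/mL, 31.7 to 34.3 at 100 µg/mL and 29.7 to 31.8 at 500 µg/mL. The JGT 500 libraries lay below those of 20 µg/mL and overlapped those of 100 µg/mL and vehicle. The 500 against 20 µg/mL difference was -0.15 ± 0.0530 (edgeR adjusted p = 0.0495), and among the alternatives that lost the call DESeq2 gave an adjusted p of 0.0818. The call was also lost without untreated library 1 or 2, vehicle library 3, JGT 100 library 1, JGT 500 library 1, or JGT 20 library 2 or 3, with adjusted p from 0.0509 to 0.163. The antisense gene Gm11365, which overlaps E2f3, averaged 0.933 counts per library.

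E2f4 (ENSMUSG00000014859, chr8:105297663-105305370, plus strand) and E2f5 (ENSMUSG00000027552, chr3:14578641-14606309, plus strand) encode the repressors that bind with pocket proteins in resting cells. E2f4 lay between 69.4 and 82.6 CPM over all groups and E2f5 between 8.04 and 10.9 CPM. All groups overlapped for E2f5; for E2f4 vehicle and the 3 JGT groups overlapped, and the untreated libraries (78.5 to 81.3 CPM) lay above those of 20 µg/mL (73.9 to 78.0 CPM). From 100 to 500 µg/mL the log2 differences were -0.03 ± 0.0542 for E2f4 (95% interval from -0.15 to 0.08) and -0.09 ± 0.0992 for E2f5 (from -0.30 to 0.11). E2f5 shares 26 bases with the opposite-strand gene 1810022K09Rik, which averaged 1252 counts, and no source used here states whether reads were counted by strand.

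E2f6 (ENSMUSG00000057469, chr12:16810963-16839742, plus strand) encodes a repressor that works through Polycomb complexes. It lay between 38.3 and 38.4 CPM untreated, 38.5 and 40.8 in vehicle, 44.0 and 44.9 at 20 µg/mL, 42.7 and 43.0 at 100 µg/mL, and 40.4 and 44.5 at 500 µg/mL. All libraries at 20 and 100 µg/mL were above all vehicle libraries. The difference at 100 µg/mL did not pass the test (log2 0.10 ± 0.0412, edgeR adjusted p = 0.200), and that at 20 µg/mL, which was not tested, was 0.16 ± 0.0414. With untreated in place of vehicle, E2f6 at 100 µg/mL was called higher (0.16, edgeR adjusted p = 0.0165).

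E2f7 (ENSMUSG00000020185, chr10:110745439-110787384, plus strand) encodes an atypical repressor. Its CPM was 22.2, 19.4 and 19.0 untreated, 16.4, 17.6 and 16.5 in vehicle, 15.9, 14.5 and 15.6 at 20 µg/mL, 11.8, 13.8 and 13.3 at 100 µg/mL, and 5.97, 7.15 and 5.36 at 500 µg/mL. No library of a group overlapped the next group in this order. E2f7 fell from 100 to 500 µg/mL by a log2 value of -1.07 ± 0.0934 (edgeR adjusted p = 5.09e-08), a 2.09-fold lower level, and from 20 to 500 µg/mL by -1.31 ± 0.0928 (adjusted p = 1.17e-09). Leaving out each library in turn moved the first of these from -1.20 to -0.98, and without the second JGT 500 library it was -1.20.

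E2f7 was also lower at 100 µg/mL than in vehicle (log2 -0.37 ± 0.0832, edgeR adjusted p = 0.0110), in all 3 libraries. This call was lost without the second vehicle library (-0.34, adjusted p = 0.0681) and without the first JGT 100 library (-0.31, adjusted p = 0.0812). The steps from untreated to vehicle (-0.26, adjusted p = 0.109, or 0.0162 without JGT 500 library 2) and from 20 to 100 µg/mL (-0.24, adjusted p = 0.331) did not pass the test. The 20 µg/mL value against vehicle was -0.13 and the 500 µg/mL value -1.44 ± 0.0928, both given without a test.

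E2f8 (ENSMUSG00000046179, chr7:48866429-48881596, minus strand) encodes the other atypical repressor. Its CPM was 56.2, 48.6 and 53.3 untreated, 52.4, 50.4 and 47.3 in vehicle, 47.4, 43.8 and 47.3 at 20 µg/mL, 43.0, 45.2 and 42.7 at 100 µg/mL, and 26.7, 29.2 and 24.9 at 500 µg/mL. The JGT 500 libraries lay well below all others, whose ranges partly overlapped. E2f8 fell from 100 to 500 µg/mL by a log2 value of -0.69 ± 0.0612 (edgeR adjusted p = 5.54e-08), a 1.62-fold lower level, and from 20 to 500 µg/mL by -0.78 ± 0.0614 (adjusted p = 6.33e-09). Without the second JGT 500 library these falls were -0.76 (adjusted p = 2.00e-10) and -0.84 (adjusted p = 1.60e-11). At 100 µg/mL against vehicle it did not pass the test (-0.20 ± 0.0588, adjusted p = 0.0666), though 6 of 22 alternatives called it, among them the fits without untreated library 2 (0.0493) and without JGT 500 library 2 (0.0136) or 3 (0.0407). The 500 µg/mL difference from vehicle was -0.89 ± 0.0615. The opposite-strand gene Gm2788 overlaps 3639 bases of E2f8 and averaged 8.87 counts, and the E2f8 estimates were not whole numbers in 11 of 15 libraries, by at most 0.18. E2f7 fell further than E2f8 in value, but the difference between their changes was not tested.

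**Figure D2:**
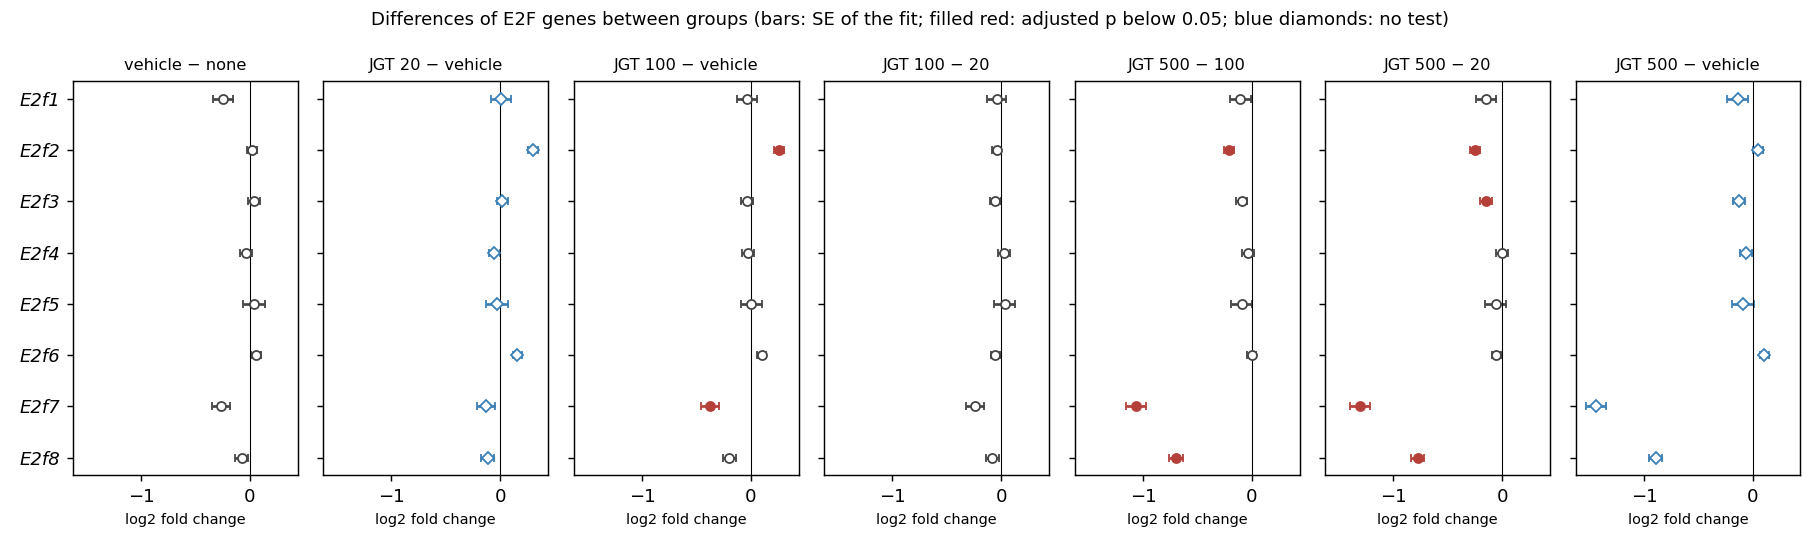
Log2 fold changes of E2f1 to E2f8 in 7 comparisons, with bars for the SE of the fit. Filled red points had an edgeR adjusted p below 0.05, and blue diamonds are the 2 comparisons given without a test. E2f7 and E2f8 lie farthest left in the 500 µg/mL panels, and E2f2 is the member farthest right at 20 and 100 µg/mL.

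Counted over the family, 1 member was higher and 1 lower at 100 µg/mL than in vehicle, where 4.31% of all tested genes were called (2.09% higher and 2.22% lower). From 100 to 500 µg/mL 3 of 8 members were lower and none was higher, where 19.7% of all genes were called (9.05% higher and 10.7% lower). From 20 to 500 µg/mL 4 of 8 were lower, against 23.3% of all genes called (11.1% higher and 12.2% lower). E2f2, chosen for its level at 20 µg/mL against vehicle, is among these 4 and is the 1 member higher at 100 µg/mL than in vehicle. No member was called between vehicle and untreated myotubes (1.31% of genes called, 0.553% higher and 0.754% lower) or between 100 and 20 µg/mL (0.429% called, 0.297% higher and 0.131% lower). For those 2 comparisons edgeR gave 2 and 1 members with an unadjusted p below 0.05, and DESeq2 called 0 and 0. The comparisons of 20 and 500 µg/mL with vehicle chose the family, so member counts there cannot test it. At 20 µg/mL 1 member passed the threshold as higher (0.325% of genes called, 0.173% higher and 0.152% lower). At 500 µg/mL 2 passed it as lower (33.3% called, 16.5% higher and 16.8% lower). The choice fixed E2f2 as higher at 20 µg/mL and E2f1 as not lower at 500 µg/mL, so nothing is read from these counts. Without the second JGT 500 library, counts of called genes rose in all 7 comparisons, from 2853 to 4984 for 500 against 100 µg/mL and from 623 to 1101 for 100 µg/mL against vehicle, while 3 members were called in each of these 2 comparisons. The median of the 8 log2 values at 500 against 100 µg/mL was -0.10, beside 0.005 over all genes tested.

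Per kilobase of exon, a scale on which genes can be compared, E2f4 was the most abundant member in vehicle at 39.4 CPM per kb, followed by E2f2 at 17.9, E2f6 at 16.5, E2f8 at 12.9, E2f3 at 6.26, E2f5 at 5.47, E2f1 at 5.29 and E2f7 at 2.13. The ranges of E2f3 and E2f5, and of E2f5 and E2f1, overlapped, so their order is not set by these libraries. E2f4 was 18.5 times E2f7 on this scale, but 7.53 times when the median length of protein-coding transcripts replaced merged exons. By median length, vehicle levels per kb were 5.23 for E2f7, 5.52 for E2f5 and 6.075 for E2f1, so the distance of E2f7 from these depends on the length used. By merged exons the order at 500 µg/mL was the same as in vehicle, with E2f2 (18.5) and E2f6 (17.7) overlapping, E2f8 at 6.94 and E2f7 at 0.780 CPM per kb. Also by merged exons, E2f8 made up 12.2% ± 0.276 of the summed family level in vehicle and 7.13% ± 0.625 at 500 µg/mL (SD, n = 3), E2f7 2.02% and 0.802%, and E2f4 37.2% and 38.8%.

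**Figure D3:**
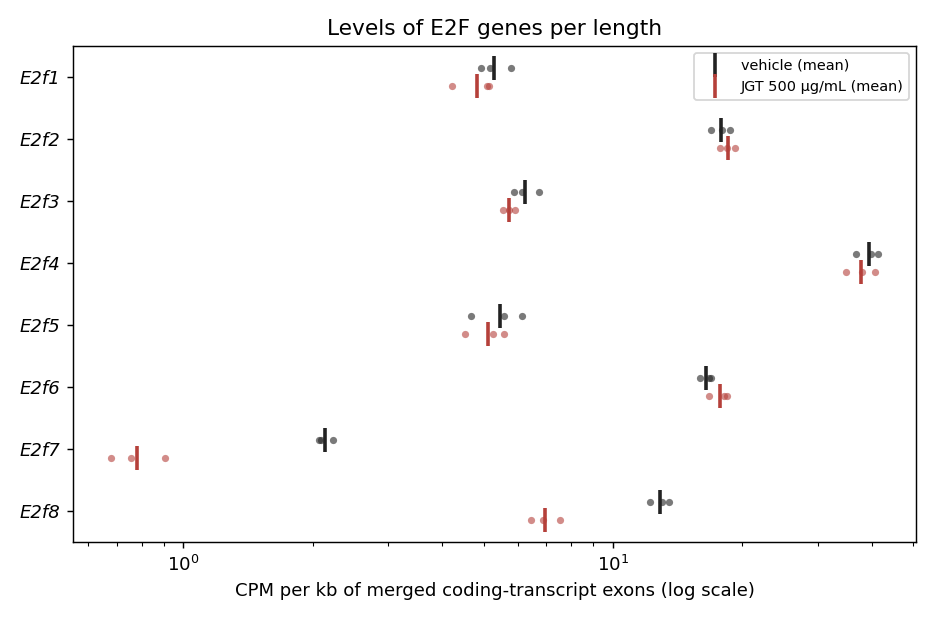
CPM per kb of merged exons (log axis) of E2f1 to E2f8 in vehicle and at JGT 500 µg/mL, with points for libraries and bars for means. E2f4 lies at the right in both groups (39.4 and 37.8), and E2f7 at the left, moving from 2.13 to 0.780.

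Only E2f7 and E2f8 had 5 group means that spanned at least 0.5 on the log2 scale (1.71 and 0.97), and for these the genes with the most similar pattern were sought among 12530 genes, as the root mean square difference of 5 centred group means. Nearest to E2f7 were Plk1, a mitotic kinase (0.0169), Smoc2, a secreted matrix-associated protein (0.0237), and Tagln, an actin-binding protein (0.0249). Nearest to E2f8 were Slc43a3 (0.0265), Col11a1, a fibrillar collagen chain (0.0296), and Ncaph, a condensin subunit (0.0296). E2f7 and E2f8 were not nearest to each other: they differed by 0.250, and E2f8 ranked 219 for E2f7 while E2f7 ranked 1254 for E2f8. These distances are descriptions over 5 group means.

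**Figure D4:**
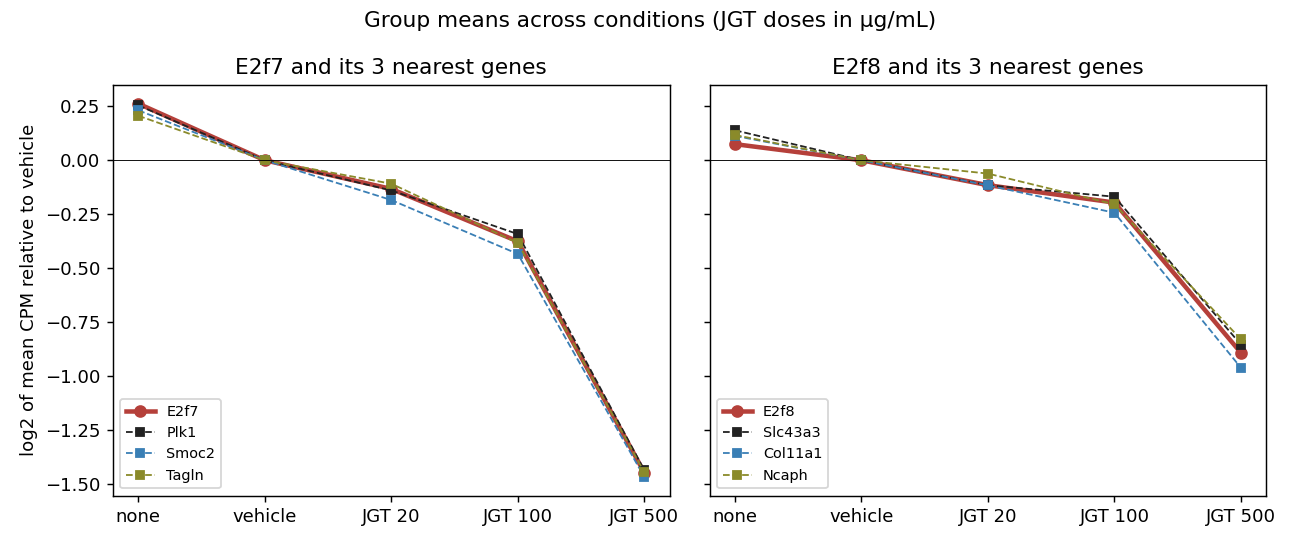
Log2 of mean CPM relative to vehicle in 5 groups for E2f7 (left) and E2f8 (right), each with its 3 nearest genes. All 8 lines are lowest at 500 µg/mL, where the fitted differences from vehicle were -1.44 for E2f7 and -0.89 for E2f8.

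The DP partners that E2f1 to E2f6 need, Tfdp1 and Tfdp2, were not called from 100 to 500 µg/mL (log2 -0.06 and 0.03), and Tfdp1 was lower at 500 than at 20 µg/mL (-0.11, edgeR adjusted p = 0.0286), a call lost without JGT 20 library 1 or 2 or JGT 500 library 3. Of the pocket protein genes, Rbl1, which encodes p107, fell from 100 to 500 µg/mL (-0.35, adjusted p = 0.00295), from 12.4 ± 0.758 to 9.77 ± 0.387 CPM (SD, n = 3). Rb1 (-0.05) and Rbl2 (0.04), which encode the retinoblastoma protein and p130, did not pass the test.

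The cyclins and kinases that free E2F from pocket proteins mostly fell from 100 to 500 µg/mL: 8 of 9 were called lower, all but Cdk2, beside 10.7% of all tested genes. The median was -0.38, and without the third JGT 500 library 5 were called. Ccna2 (cyclin A2) changed by -1.09 (edgeR adjusted p = 5.70e-12), Ccnd1 (cyclin D1) by -0.85 and Ccne2 (cyclin E2) by -0.56. At 100 µg/mL against vehicle Ccna2 alone of the 9 was called (-0.36, edgeR adjusted p = 6.35e-05), where 2.22% of all tested genes were called lower. Of the CDK inhibitor genes, Cdkn1a (p21) and Cdkn1b (p27) rose from 100 to 500 µg/mL (0.11 and 0.14, adjusted p = 0.0327 and 0.0176) and Cdkn1c (p57) fell (-0.28, adjusted p = 0.0179). All 3 calls were lost in the fit of the 2 groups alone, both higher calls also without JGT 500 library 1 or JGT 100 library 2 or 3, and the lower call without JGT 500 library 2 or JGT 100 library 2. Without untreated library 1, JGT 100 library 1, JGT 20 library 2 or JGT 500 library 3, 1 of the higher calls was kept. Cdkn2a and Cdkn2b were listed at 0 in every library.

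Most E2F target genes for DNA replication fell at the highest dose. Of 31 tested DNA replication genes, 25 were lower at 500 than at 100 µg/mL, with a median of -0.53, beside 10.7% of all tested genes. Mcm5, a helicase subunit, changed by -1.03, Uhrf1, a maintenance methylation factor, by -0.92 and Tk1, thymidine kinase, by -0.82. At 100 µg/mL against vehicle 6 of 31 were lower (median -0.17), where 2.22% of all tested genes were called lower. That count of 6 ranged from 1 to 11 when single libraries were left out. It was 1 without the third and 2 without the second vehicle library. It was 3 without the first and 2 without the second JGT 100 library, and 11 without the second JGT 500 library.

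All 25 mitotic genes were lower at 500 than at 100 µg/mL (median -0.87), beside 10.7% of all tested genes. Among them were Mki67 (-1.10), Plk1 (-1.09) and Top2a (-0.87). At 100 µg/mL 21 of 25 were lower than vehicle (median -0.33), beside 2.22% of all tested genes. Among MuvB subunits and partners, which act with E2F4 in the DREAM complex or with B-Myb and FoxM1 at mitotic promoters, Foxm1 (-0.99, edgeR adjusted p = 7.92e-11), Mybl2 (-1.16, adjusted p = 6.17e-07) and Lin54 (-0.21, adjusted p = 0.0294) fell from 100 to 500 µg/mL. These are 3 of 7 listed genes, beside 10.7% of all tested genes. Of the 7 genes, 2 were called lower without JGT 500 library 1 or 3 or JGT 100 library 1 or 2. Without JGT 500 library 2, 4 were called lower. Vehicle and untreated myotubes differed in the same lists. In vehicle 10 of 25 mitotic genes were lower than untreated (median -0.25, with 25 of 25 below 0), beside 0.754% of all tested genes. That count was 5 without vehicle library 1 or 3 and 15 without JGT 500 library 2. Of the DNA replication genes 5 of 31 were lower (median -0.22), beside the same 0.754%. This count was 2 without untreated library 3 or any 1 vehicle library, and 3 without untreated library 2. It was 8 without JGT 500 library 3 and 14 without JGT 500 library 2. Ccna2 and Ccnd1 were lower in vehicle too, of which 1 was called whenever an untreated or vehicle library was left out, and Foxm1 was lower, a call lost without any 1 library of the untreated, vehicle, 20 or 100 µg/mL groups. Summed over the mitotic list, libraries held 814 to 846 CPM untreated, 669 to 711 CPM in vehicle and 306 to 309 CPM at 500 µg/mL.

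Of 10 subunits of the Polycomb complex that E2F6 joins, Yaf2 alone was lower from 100 to 500 µg/mL (-0.21, edgeR adjusted p = 0.0188), a call lost without JGT 500 library 1 or 3 or JGT 100 library 1 or 2. That 1 of 10 is near the 10.7% of all tested genes that were called lower. The germline genes that E2F6 silences, Stag3, Smc1b, Slc25a31 and Tuba3a, summed to at most 0.154 CPM in any library and were not tested. Of 7 tested apoptosis genes linked to E2F1, Trp53inp1 (0.32, adjusted p = 8.80e-05) and Bcl2l11 (0.27, adjusted p = 0.0199) rose from 100 to 500 µg/mL, and 5 were not called, where 9.05% of all tested genes were called higher. Without JGT 100 library 2 or 3, 1 was called higher.

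**Figure D5:**
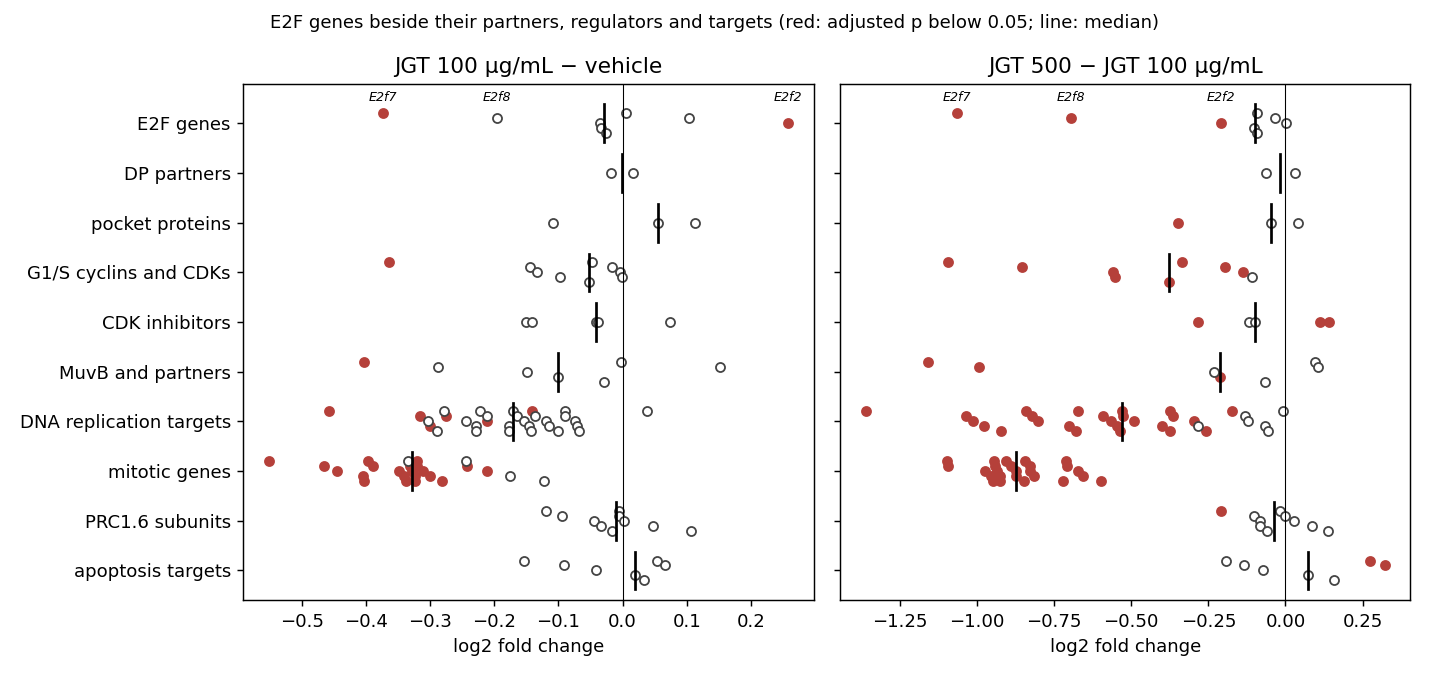
Log2 fold changes of the E2F genes and of 9 lists of partners, regulators and targets at 100 µg/mL against vehicle (left) and at 500 against 100 µg/mL (right). Red points had an edgeR adjusted p below 0.05, and lines are medians, which for DNA replication and mitotic genes are -0.53 and -0.87 in the right panel.

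Markers of other cell states moved beside these lists. The summed level of markers of undifferentiated cells was 209 to 217 CPM in vehicle and 156 to 172 CPM at 500 µg/mL. Cd34, Heyl, Pax7 and Vcam1 were lower at 500 than at 100 µg/mL (4 of 7 tested, beside 10.7% of all genes). Id3, Myf5 and Spry1 were not called there. Against 20 µg/mL the same 4 were lower at 500 µg/mL, but Id3 and Spry1 were higher. Of all tested genes 12.2% were lower and 11.1% higher in that comparison. The count of 2 higher markers ranged from 0 to 2 with single libraries left out. Spry1 was also higher at 100 µg/mL than in vehicle. The myotube list summed to 12728 to 13222 CPM in vehicle and 11942 to 12315 CPM at 500 µg/mL, with 4 of 10 lower and 1 higher than at 100 µg/mL. Of all tested genes 10.7% were lower and 9.05% higher there. The part that these shifts have in the levels of E2f7 and E2f8 was not tested.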

How the data were processed

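RNA of 15 C2C12 libraries (5 groups of 3) was sequenced with 100 bp paired-end reads from a directional kit, per the labels' protocols. The authors deposited 1 table of expected counts per gene symbol, as RSEM estimates them: 9.34% of values are not whole (tolerance 0.005). The submitters' processing notes name FastQC 0.11.9, Trim Galore 0.6.5, STAR 2.7.3a, RSEM 1.3.3 and GRCm38/mm10; the annotation and the strand setting of the counting were not given in these sources. Estimates were rounded, filtered with filterByExpr (14461 genes), scaled by TMM and fitted over all 5 groups with edgeR 4.0.16 (R 4.3.3) by its quasi-likelihood test with Benjamini-Hochberg adjustment over all tested genes, a procedure tested on simulated data. DESeq2 1.42.0, other scalings, no filter, 2-group fits, a replicate block and leaving out each library were tried. CPM per kb used GENCODE M21 exons. Members and lists were chosen with earlier results of these data known. Named genes were all members, DP and pocket genes, the 3 genes of every other list with the smallest p from 100 to 500 µg/mL, and the 3 genes nearest in pattern to a member spanning at least 0.5 on the log2 scale. Cdk2, Pax7, Id3, Spry1, Cdkn2a, Cdkn2b, the germline genes and the marker examples fall outside this rule and were named after their values were seen. A gene that the rule names is not reported here.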

Additional observations from a re-analysis of the deposited data

How the results depend on the processing

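The precision of these values is limited by 3 libraries a group and, for E2f7 at 500 µg/mL, by 152 counts in the shallowest case. No called result changed direction. Between vehicle and untreated myotubes 0 members were called, against 2 in a fit of the 2 groups alone and 0 to 1 when single libraries were left out. At 100 µg/mL against vehicle 2 were called, 1 to 3 with a library left out and 4 with untreated in place of vehicle. From 100 to 500 µg/mL 3 were called in every alternative run, and from 20 to 500 µg/mL 4, with 3 to 4 over left-out libraries. The median member difference at 20 µg/mL against vehicle (-0.0095 on the log2 scale) ranged from -0.037 to 0.029 with libraries left out and was -0.037 against untreated; at 500 µg/mL it was -0.11, from -0.13 to -0.075. The ratio of E2f4 to E2f7 fell from 18.5 to 7.53 with median transcript length. Counts over all genes in 2-group fits were 1032 in place of 189 for vehicle against untreated, 1369 in place of 623 at 100 µg/mL, 191 in place of 62 for 100 against 20 µg/mL, 1312 in place of 2853 for 500 against 100 µg/mL and 1982 in place of 3371 for 500 against 20 µg/mL. For 20 µg/mL against vehicle it was 330 in place of 47, with 95 by DESeq2 and 73 without a filter, and with untreated as control 450, and 1320 at 100 µg/mL. DESeq2 called 319 for vehicle against untreated. With libraries left out the counts ranged from 36 to 1073 for vehicle against untreated, 315 to 1101 at 100 µg/mL, 18 to 236 at 20 µg/mL, 19 to 202 for 100 against 20, 1877 to 4984 for 500 against 100 and 2532 to 5165 for 500 against 20 µg/mL, each highest without JGT 500 library 2. The cause was not tested. With the replicate number as a block, 0, 2, 0, 3 and 3 members were called in the 5 tested comparisons. Same-numbered libraries correlated by -0.32 to 0.12, and 4 of 15 correlated best with their own number. Same-numbered libraries of 500 and 100 µg/mL correlated by 0.07, 0.11 and 0.12, and those of 500 and 20 µg/mL by -0.18, -0.21 and 0.04. These values do not settle whether the numbers pair the libraries.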
